A study of Mus musculus with 24 samples.

Results

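The genes described here are Il33, Il18, Il1a, Il1b and Il1rn, which encode the interleukin-1 family alarmins and cytokines and their receptor antagonist, with Il1rl1, the IL-33 receptor gene, and Il24, a cytokine gene of the IL-20 subfamily. Members were the mouse array probe sets whose annotation names 1 of these 7 genes and no other gene. They were 8 probe sets of 6 genes, out of 28898 probe sets that name a single gene and 17097 genes. Il1rn had 3 probe sets and the other 5 genes had 1 each. No probe set was annotated to Il1rl1 alone, and that gene was not analysed here. All 8 probe sets lay above the dim level used as the filter, a mean log2 value of 6.27 over all arrays.

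The study profiled stromal cells, labelled as the neural fraction, of orthotopic xenografts of SCC25, a human oral squamous carcinoma cell line, grown in immunodeficient NOD-SCIDγ (NSG) mice. The tumour cells carried a short hairpin against EGR2 (hairpins shEGR2_40.9 and shEGR2_38.9), a short hairpin against GAL (shGAL, the gene of the neuropeptide galanin) or the non-targeting PLKO construct, and the mice received a palmitic acid (PA)-rich diet or a control diet. Each of the 8 groups was measured on 3 arrays: shEGR2_40.9 on the PA-rich and on the control diet, shEGR2_38.9 on the PA-rich and on the control diet, shGAL on the PA-rich and on the control diet, and PLKO on the PA-rich and on the control diet. The series calls the 3 arrays of a group technical replicates, so p-values measure the spread between these arrays and not between animals. NSG mice lack mature T, B and natural killer cells, so the host has few of the lymphocytes that respond to these cytokines. GAL was targeted by 1 hairpin. The silencing is in human cells and the arrays carry mouse probes, so the mouse Egr2 and Gal signals do not check it. Values are log2 intensities after RMA (robust multi-array average) and are called levels here.

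Interleukin-1 family alarmins are cytokines that cells keep ready and release when they are damaged or stressed. IL-33 is stored in the nucleus of barrier epithelial, endothelial and stromal cells and signals through ST2 (Il1rl1) and the shared accessory chain IL-1RAP on mast cells, type 2 innate lymphoid cells and macrophages. IL-18 and IL-1β are made as precursors that caspase-1 of the inflammasome cleaves, whereas IL-1α is active without that step. IL-1α and IL-1β act on IL-1R1, which IL-1Ra, the product of Il1rn, occupies without signalling. IL-24 acts on receptors of IL-20RA or IL-22RA1 paired with IL-20RB and activates STAT3, above all in epithelial cells. Nerves and their glia both produce and respond to several of these cytokines.

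The promoter sequence is shown for Il33, Il18 and Il1a, the alarmin genes that were lower than in PLKO with both EGR2 hairpins on the control diet, as the 250 bases before each RefSeq start in build GRCm38.p6, 5′ to 3′ on the gene's own strand. Capitals mark matches to the motifs searched on both strands, which were the AP-1 site TGANTCA, the EGR site GCGNGGGCG, the kappaB consensus, the STAT site TTCNNNGAA and the TATA box TATAAA.
Il33, start 1, chr19:29924863-29925112, plus strand: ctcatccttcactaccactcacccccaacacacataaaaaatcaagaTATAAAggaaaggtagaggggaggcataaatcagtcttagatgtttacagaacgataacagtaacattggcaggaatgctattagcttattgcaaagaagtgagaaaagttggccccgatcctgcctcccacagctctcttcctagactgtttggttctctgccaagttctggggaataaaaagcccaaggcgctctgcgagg
Il33, start 2, chr19:29945540-29945789, plus strand: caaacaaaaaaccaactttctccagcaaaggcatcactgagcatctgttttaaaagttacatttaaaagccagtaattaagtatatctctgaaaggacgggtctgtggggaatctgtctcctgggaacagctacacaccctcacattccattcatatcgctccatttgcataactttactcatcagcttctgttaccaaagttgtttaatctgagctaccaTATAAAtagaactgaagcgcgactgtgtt
Il18, chr9:50554450-50554699, plus strand: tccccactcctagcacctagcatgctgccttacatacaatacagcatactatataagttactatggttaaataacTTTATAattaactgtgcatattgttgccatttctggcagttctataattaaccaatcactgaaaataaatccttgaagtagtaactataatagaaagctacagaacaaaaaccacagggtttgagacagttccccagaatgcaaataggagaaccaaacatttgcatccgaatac
Il1a, chr2:129309973-129310222, minus strand: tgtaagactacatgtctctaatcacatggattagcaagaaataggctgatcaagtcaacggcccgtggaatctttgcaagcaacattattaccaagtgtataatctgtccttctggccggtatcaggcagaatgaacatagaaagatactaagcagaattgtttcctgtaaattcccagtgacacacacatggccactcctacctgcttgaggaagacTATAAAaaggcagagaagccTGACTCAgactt
The second Il33 start had TATAAA 29 to 24 bases upstream, and the first had it 203 to 198 bases upstream. Il18 had the reverse complement, TTTATA, 175 to 170 bases upstream. Il1a had TATAAA 32 to 27 bases upstream and TGACTCA 12 to 6 bases upstream. Over the 32851 promoter windows of the same length in the table, 12.4% held TATAAA, 6.75% the AP-1 site, 4.7% the EGR site, 7.25% the kappaB consensus and 7.02% the STAT site. None of these 4 windows held a match to the EGR, kappaB or STAT letters. The promoter table held 6 of the 7 genes. The annotated genes themselves lie at chr19:29925113-29960718 (Il33), chr9:50554700-50581841 (Il18), chr2:129299609-129310186 (Il1a), chr2:129364569-129371164 (Il1b), chr2:24336860-24351491 (Il1rn) and chr1:130882074-130887411 (Il24) of that build.

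The 24 arrays had mean levels between 7.09 and 7.17. The control-diet array 3 of shEGR2_38.9 stood apart: its Gapdh 3′ minus 5′ difference was 0.76 against -0.12 to 0.08 on the other arrays, its mean level 7.09 against 7.15 to 7.17, and its mean correlation with its own group 0.977 against 0.985 to 0.996. All member results that use it were recomputed without it, and 3 calls changed, each given with its result. Of the glial markers, 4 of the 6 measured were above the dim level, while S100b and Gfap were below it. Of the 8 neuronal markers, 3 were above it, and Nefl, Nefm, Snap25, Syt1 and Uchl1 were below it. All 11 measured keratinocyte markers and all 9 endothelial markers were above it. The labelled neural fraction thus also had signal for markers of other cell types. Of the 5 measured lymphocyte markers, 3 were also above it, Cd4 (7.31), Cd8a (6.84) and Cd79a (6.97), although NSG mice lack mature T and B cells. A mean above the dim level therefore does not by itself show that a gene was expressed or a cell type present. The means of Il18 (6.75) and Il1b (7.21) were of similar size. The mean level of the markers above the dim level was 10.57 to 11.42 over the arrays for keratinocytes. It was 8.42 to 8.78 for glia and 7.59 to 7.94 for neurons. The tumour cells were human squamous cells, and how far their RNA was present or bound the mouse probes, those of keratinocyte markers and members included, was not tested. In such bulk samples fewer cells of a type and less RNA per cell cannot be told apart. Arrays were scanned in 6 batches of 4. Each replicate number marks 1 scan batch within a hairpin, shared by both diets, and each hairpin shares 1 batch with PLKO.

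The first comparison asks what the PA-rich diet did to these genes with each hairpin. Il33 and Il18 were higher on the PA-rich diet with shEGR2_38.9 and with shGAL, 3.25-fold and 2.45-fold for Il33 and 1.86-fold and 1.80-fold for Il18. With shEGR2_38.9, Il1a, Il24 and 2 of the 3 Il1rn probe sets were higher too. With PLKO the diet went with higher Il1rn and no called change in Il33 or Il18. With all arrays fitted, no member was called lower by the diet with any hairpin, by limma at an adjusted p under 0.05.

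Il33, the nuclear alarmin, had levels of 8.14, 7.82 and 8.11 with shEGR2_38.9 on the PA-rich diet, against 6.41, 6.30 and 6.24 on the control diet. With shGAL it had 9.35, 9.66 and 9.88 on the PA-rich diet, against 8.51, 7.96 and 8.53 on the control diet. Neither pair of groups overlapped, and every array on the PA-rich diet was above every array on the control diet. The log2 change was 1.70 ± 0.156 with shEGR2_38.9 (standard error, 3 arrays a group, adjusted p = 4.27e-08) and 1.29 ± 0.156 with shGAL (adjusted p = 0.000171). With shEGR2_40.9 Il33 had 7.40, 7.41 and 7.29 on the PA-rich diet, against 7.15, 7.08 and 6.86 on the control diet, which also did not overlap. That change of 0.33 did not pass (adjusted p = 0.224), but it did with only the compared arrays fitted (adjusted p = 0.0438). With PLKO the order was turned, at 7.31, 7.78 and 7.88 on the PA-rich diet against 8.21, 8.17 and 7.89 on the control diet, again with no overlap, a change of -0.43 that did not pass (adjusted p = 0.247). Within the scan batches the difference was positive in 9 of 9 pairs with a targeting hairpin, 0.24 to 0.43 with shEGR2_40.9, 1.51 to 1.86 with shEGR2_38.9 and 0.84 to 1.69 with shGAL, and negative in 3 of 3 with PLKO, -0.90 to -0.01. Without the array that stood apart the shEGR2_38.9 change was 1.66 (adjusted p = 7.45e-07).

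**Figure D1:**
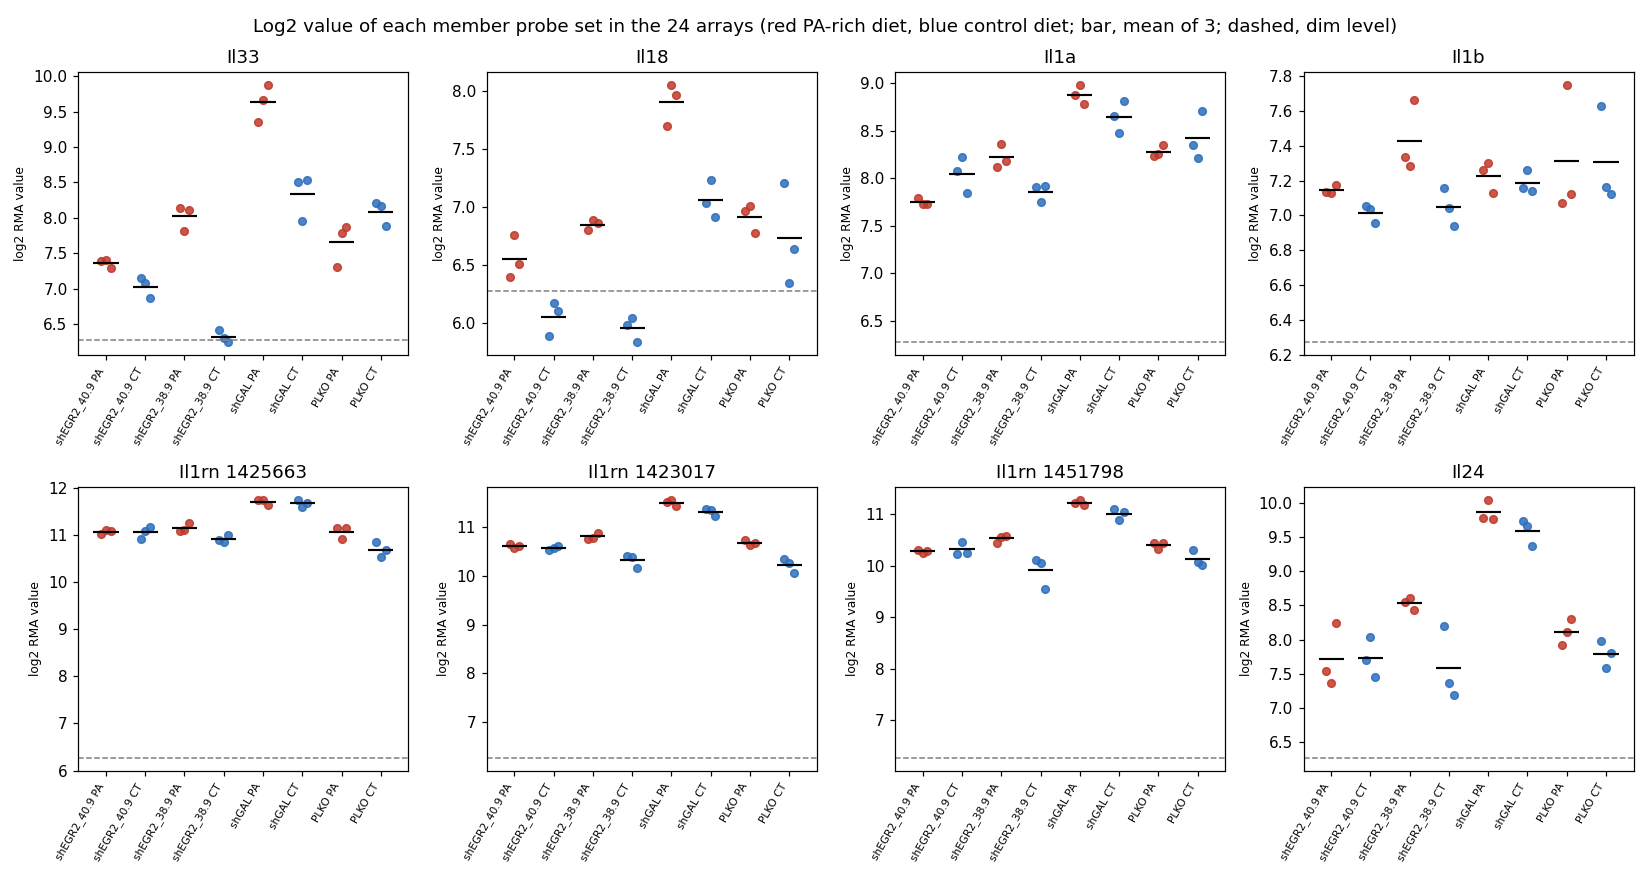
Log2 RMA level (vertical axis) of each of the 8 member probe sets on every array, by hairpin and diet (horizontal axis, the PA-rich diet in red left of the control diet in blue); points are arrays and bars are means of 3. Il33 and Il18 sit higher on the PA-rich diet with shEGR2_38.9 and shGAL, and Il24 and Il1rn sit highest with shGAL on both diets.

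Il18, whose precursor is cleaved by caspase-1, had levels of 6.80, 6.89 and 6.86 with shEGR2_38.9 on the PA-rich diet, against 5.98, 6.04 and 5.83 on the control diet, the last 3 below the dim level of 6.27. With shGAL it had 7.70, 8.06 and 7.97 on the PA-rich diet, against 7.04, 7.23 and 6.91 on the control diet. The groups did not overlap with either hairpin, and the log2 changes of 0.90 ± 0.151 (adjusted p = 0.000129) and 0.85 ± 0.151 (adjusted p = 0.00418) were of much the same size. With shEGR2_40.9 Il18 had 6.39, 6.76 and 6.51 on the PA-rich diet, against 5.89, 6.17 and 6.10 on the control diet, with no overlap. That change of 0.50 passed (adjusted p = 0.0411), but not with all probe sets tested (adjusted p = 0.0562), nor without any one of 5 of the 6 arrays compared (the 3 control-diet arrays and PA-rich arrays 2 and 3, adjusted p = 0.0521 to 0.202) or without the PA-rich array 3 of shEGR2_38.9 (adjusted p = 0.0506). With PLKO the levels overlapped, 6.97, 7.01 and 6.78 on the PA-rich diet against 7.21, 6.35 and 6.64 on the control diet, a change of 0.19 (adjusted p = 0.731). Within scan batches the Il18 difference was 0.41 to 1.06 over the 9 pairs with a targeting hairpin and -0.24 to 0.66 over the 3 PLKO pairs. Without the array that stood apart the shEGR2_38.9 change was 0.84 (adjusted p = 0.00122).

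Il1a, the alarmin that signals through IL-1R1, had 8.12, 8.36 and 8.18 with shEGR2_38.9 on the PA-rich diet, against 7.91, 7.75 and 7.92 on the control diet. The groups did not overlap, and the log2 change of 0.36 ± 0.112 passed (adjusted p = 0.0225), 0.39 without the array that stood apart (adjusted p = 0.0326), though not without the control-diet array 2 (0.31, adjusted p = 0.0786) or the PA-rich array 2 (0.29, adjusted p = 0.117) of that hairpin. Il1a changes with shEGR2_40.9, shGAL and PLKO were -0.29, 0.23 and -0.14 and did not pass (adjusted p = 0.116 for the first). The decrease with shEGR2_40.9 passed without control-diet array 3 of that hairpin (-0.40, adjusted p = 0.0489). Il1b, the inflammasome-dependent cytokine, spanned 6.94 to 7.75 over all 24 arrays. Its change was 0.38 with shEGR2_38.9 (adjusted p = 0.0585), where 3 of 3 PA-rich arrays lay above the control-diet arrays, and it passed without any one of 4 arrays (PLKO control-diet array 1, PLKO PA-rich arrays 1 and 2, and shEGR2_38.9 control-diet array 1, adjusted p = 0.0163 to 0.0492). Without the array that stood apart it was 0.33 (adjusted p = 0.176). With the other hairpins the Il1b differences were 0.13 (shEGR2_40.9), 0.04 (shGAL) and 0.01 (PLKO), and none passed.

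Il1rn, which encodes the IL-1 receptor antagonist, gave the same direction at its 3 probe sets with shEGR2_38.9. Probe set 1423017_PM_a_at had 10.76, 10.78 and 10.88 on the PA-rich diet, against 10.40, 10.39 and 10.15 on the control diet. Its groups did not overlap, and the change was 0.49 ± 0.0782 (adjusted p = 6.72e-05), 0.41 without the array that stood apart (adjusted p = 0.000369). At 1451798_PM_at the change was 0.62 ± 0.11 (adjusted p = 0.000226), 0.44 without the array that stood apart (adjusted p = 0.000887), and at 1425663_PM_at it was 0.24 (adjusted p = 0.0573), and it passed with scan batch as a block (adjusted p = 0.0384) and without the array that stood apart (0.28, adjusted p = 0.0413). With PLKO 1423017_PM_a_at had 10.73, 10.62 and 10.68 on the PA-rich diet, against 10.33, 10.26 and 10.07 on the control diet, with no overlap and a change of 0.46 ± 0.0782 (adjusted p = 0.004). That call missed the threshold when only the 6 PLKO arrays were fitted (adjusted p = 0.0593). The PLKO change at 1425663_PM_at, 0.38 (adjusted p = 0.0323), did not hold without PLKO control-diet array 2 or 3 or PA-rich array 1 or 3 (adjusted p = 0.1 to 0.169), and the difference at 1451798_PM_at was 0.27 (adjusted p = 0.317). The 3 differences were -0.03 to 0.04 with shEGR2_40.9 and 0.03 to 0.22 with shGAL, and none passed.

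Il24 had 8.55, 8.61 and 8.44 with shEGR2_38.9 on the PA-rich diet, against 8.20, 7.36 and 7.18 on the control diet. The control-diet arrays were widely spread and still lay below the PA-rich ones, and the change of 0.95 ± 0.216 passed (adjusted p = 0.00251). It ranged from 0.75, without the control-diet array 3 that stood apart (adjusted p = 0.0251), to 1.26, without the control-diet array 1. Within scan batches the Il24 difference was 0.35, 1.25 and 1.25 with shEGR2_38.9 and 0.04, 0.38 and 0.39 with shGAL. It changed sign between batches with shEGR2_40.9 (-0.17, -0.66 and 0.79) and with PLKO (-0.06, 0.54 and 0.50). With shEGR2_40.9, shGAL and PLKO the Il24 changes were -0.01, 0.27 and 0.33, and none passed (adjusted p = 0.643 with PLKO).

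Counted over the 8 member probe sets, 1 was called higher with shEGR2_40.9, 6 with shEGR2_38.9, 2 with shGAL and 2 with PLKO, both of them Il1rn. Of all 18937 probe sets tested, 3.06% were called higher with shEGR2_40.9, 13.3% with shEGR2_38.9, 1.56% with shGAL and 0.322% with PLKO. Those called lower were 5.52%, 8.51%, 0.581% and 0.808% in the same order, and none of the members was among them. The diet groups did not overlap at 8 member probe sets with shEGR2_38.9, at 4 with shEGR2_40.9, at 5 with shGAL and at 4 with PLKO. Of all probe sets tested, 34.7%, 30.5%, 21% and 20.3% had diet groups that did not overlap in the same order of hairpins, and 21.8%, 8.58%, 2.14% and 1.13% were called in either direction. The median member change was 0.56 with shEGR2_38.9 against 0.07 over all probe sets, 0.23 with shGAL against 0.00, 0.02 with shEGR2_40.9 against 0.02, and 0.23 with PLKO against 0.00. Without the control-diet array that stood apart, 7 member probe sets were called with shEGR2_38.9.

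**Figure D2:**
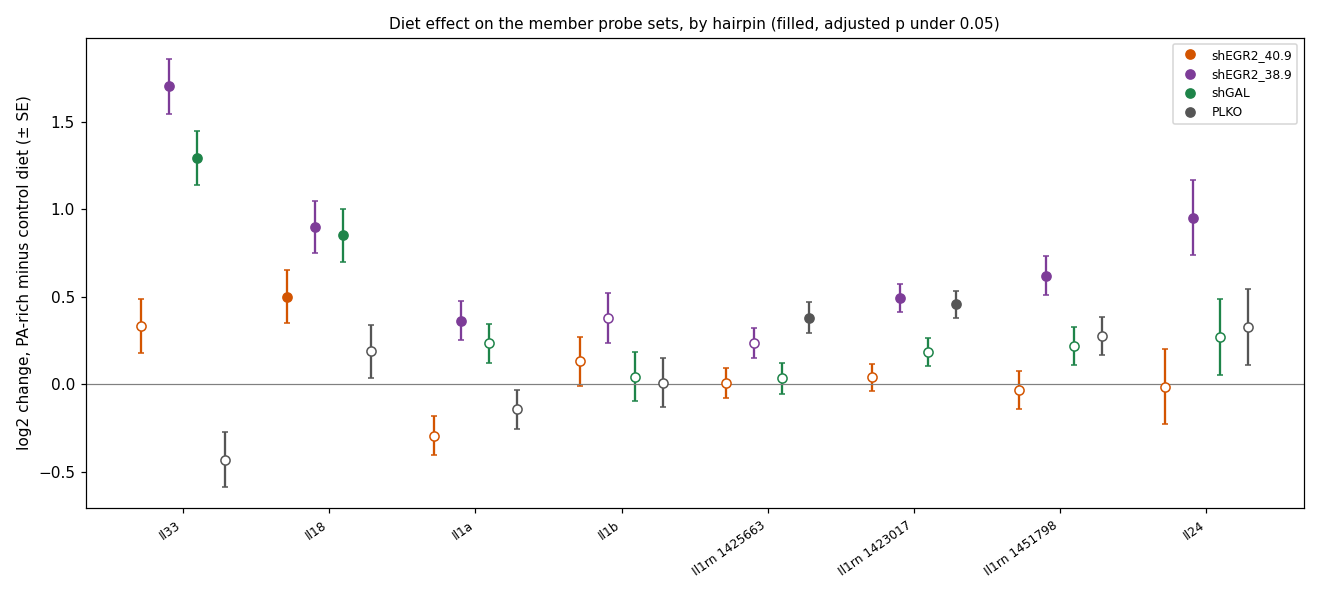
Log2 change on the PA-rich diet relative to the control diet (vertical axis) for each member probe set (horizontal axis) and hairpin (colour); bars are standard errors of the limma fit and filled points passed at an adjusted p under 0.05. Il33 is highest with shEGR2_38.9 at 1.70 and with shGAL at 1.29, and lies below 0 with PLKO at -0.43.

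Whether the diet effect itself differed between hairpins was tested in the same model. Il33 was the member whose diet effect differed from that with PLKO for both silenced genes. The difference was 1.45 ± 0.191 for the mean of the EGR2 hairpins (adjusted p = 4.02e-05) and 1.73 ± 0.22 for shGAL (adjusted p = 0.000173), and both differences use the same 6 PLKO arrays. It was 2.13 for shEGR2_38.9 alone (adjusted p = 1.35e-06) and 0.77 for shEGR2_40.9 alone, which did not pass (adjusted p = 0.0519). That difference lay at the threshold and passed in 9 of the alternatives (adjusted p = 0.0264 to 0.0477), among them leaving out the array that stood apart (0.77, adjusted p = 0.0445). Without that array the Il33 difference was 1.43 for the mean of the EGR2 hairpins (adjusted p = 7.22e-05) and 2.10 for shEGR2_38.9 alone (adjusted p = 7.24e-06). Il33 was 1 of 8 member probe sets called with the EGR2 hairpins, where 4.66% of all probe sets were called higher, and 1 of 8 with shGAL, where 0.877% were.

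For shEGR2_38.9 alone Il18 (0.71, adjusted p = 0.0294) and Il1a (0.51, adjusted p = 0.0365) also differed from PLKO, 3 member probe sets in all against 7.47% of all probe sets called higher. The Il18 call was lost without any one of 5 arrays, among them the array that stood apart (0.65, adjusted p = 0.0657) and PLKO control-diet array 1 (0.47, adjusted p = 0.0776). The Il1a call was lost without any one of 6, to adjusted p = 0.122 at 0.37 without PLKO control-diet array 3, and was 0.54 without the array that stood apart (adjusted p = 0.0379). Without shEGR2_38.9 control-diet array 1 Il24 passed (0.93, adjusted p = 0.0211), and without PLKO PA-rich array 2 Il1b did (0.59, adjusted p = 0.0235). For shEGR2_40.9 alone 1423017_PM_a_at of Il1rn had a smaller diet effect than with PLKO (-0.42, adjusted p = 0.0344), 1 of 8 member probe sets where 2.42% of all were called lower, and this was lost without any one of 8 arrays (adjusted p up to 0.108). For shGAL the Il18 difference of 0.66 did not pass (adjusted p = 0.134), and it did without PLKO control-diet array 2 (0.86, adjusted p = 0.0401). For the mean of the EGR2 hairpins Il18 differed by 0.51 (adjusted p = 0.0878), and it passed without the same array (0.70, adjusted p = 0.0125).

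The EGR2 hairpins also differed from each other. The diet effect was larger with shEGR2_38.9 than with shEGR2_40.9 for Il33 by 1.37 ± 0.22 (adjusted p = 0.000597), for Il1a by 0.66 (adjusted p = 0.015), and at Il1rn probe sets 1423017_PM_a_at by 0.45 (adjusted p = 0.0159) and 1451798_PM_at by 0.65 (adjusted p = 0.0136). These were 4 of 8 member probe sets, where 3.75% of all probe sets were called higher. The Il24 difference of 0.97 did not pass (adjusted p = 0.0674) and did without the shEGR2_40.9 PA-rich array 3 (1.23, adjusted p = 0.0166) or the shEGR2_38.9 control-diet array 1 (1.27, adjusted p = 0.00576). The Il33 call held in all 30 alternatives. Without the array that stood apart all 4 were called, Il33 by 1.33 (adjusted p = 0.00201), Il1a by 0.69 (adjusted p = 0.0174), 1423017_PM_a_at by 0.37 (adjusted p = 0.0286) and 1451798_PM_at by 0.48 (adjusted p = 0.0177). The Il1a call was lost without shEGR2_40.9 control-diet array 2 or shEGR2_38.9 PA-rich array 2 (adjusted p = 0.0533 and 0.0531), and that at 1423017_PM_a_at without shEGR2_38.9 PA-rich array 3 (adjusted p = 0.053). The call at 1451798_PM_at was lost with only the compared arrays fitted (adjusted p = 0.0581).

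The next comparison asks what silencing EGR2 in the tumour cells did on each diet. On the control diet the alarmin genes Il33, Il18 and Il1a were lower with both EGR2 hairpins, to 0.376-fold, 0.603-fold and 0.721-fold of PLKO on average, and Il1rn was higher at 2 of its 3 probe sets for the mean of both hairpins and for shEGR2_40.9. On the PA-rich diet none of the members was called for the mean of both hairpins.

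On the control diet Il33 had 7.15, 7.08 and 6.86 with shEGR2_40.9 and 6.41, 6.30 and 6.24 with shEGR2_38.9, against 8.21, 8.17 and 7.89 with PLKO. None of the 6 EGR2 arrays reached the PLKO range, and the mean change was -1.41 ± 0.135 (adjusted p = 7.1e-08), -1.06 for shEGR2_40.9 alone (adjusted p = 5.63e-05) and -1.77 for shEGR2_38.9 alone (adjusted p = 1.7e-08). Il18 had 5.89, 6.17 and 6.10 with shEGR2_40.9 and 5.98, 6.04 and 5.83 with shEGR2_38.9, all below the dim level, against 7.21, 6.35 and 6.64 with PLKO. Its groups did not overlap either, and the mean change was -0.73 (adjusted p = 0.000243). For shEGR2_40.9 alone it was -0.68 (adjusted p = 0.00368) and -0.44 without PLKO control-diet array 1, and it missed the threshold with only the compared arrays fitted (adjusted p = 0.065). Il1a had 8.08, 8.22 and 7.84 with shEGR2_40.9 and 7.91, 7.75 and 7.92 with shEGR2_38.9, against 8.36, 8.21 and 8.71 with PLKO. One array of shEGR2_40.9 reached into the PLKO range, and the mean change was -0.47 (adjusted p = 0.000963). For shEGR2_40.9 alone the Il1a change of -0.38 (adjusted p = 0.0286) missed the threshold with scan batch as a block (adjusted p = 0.0879), and it was -0.24 without PLKO control-diet array 3 (adjusted p = 0.207). It was also lost without the shEGR2_40.9 control-diet array 1 (adjusted p = 0.0558) or array 3 (adjusted p = 0.17).

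Il1rn ran the other way for the mean of both hairpins at 2 of its 3 probe sets. Probe set 1425663_PM_at had 10.92, 11.09 and 11.16 with shEGR2_40.9 and 10.89, 10.85 and 11.00 with shEGR2_38.9, against 10.85, 10.53 and 10.68 with PLKO. The mean change was 0.30 (adjusted p = 0.00568), and 0.22 without PLKO control-diet array 2 (adjusted p = 0.0705). At 1423017_PM_a_at it was 0.22 (adjusted p = 0.0189), and this missed the threshold with scan batch as a block (adjusted p = 0.0834) and without PLKO control-diet array 3 (0.15, adjusted p = 0.184). The difference at 1451798_PM_at was -0.02. For shEGR2_40.9 alone the differences were 0.37 at 1425663_PM_at (adjusted p = 0.00616), 0.35 at 1423017_PM_a_at (adjusted p = 0.00367) and 0.19 at 1451798_PM_at (adjusted p = 0.299). For shEGR2_38.9 alone they were 0.23, 0.09 and -0.22 in the same order, and none passed (adjusted p = 0.0545, 0.38 and 0.135). That of Il24 was -0.13 (adjusted p = 0.635) and that of Il1b -0.27 (adjusted p = 0.107). In all 5 of 8 member probe sets were called, where 25% of all were, with 2 higher (11.3% of all) and 3 lower (13.7% of all). For shEGR2_40.9 alone 2 were higher and 3 lower, where 8.05% and 4.86% of all were. For shEGR2_38.9 alone 0 were higher and 3 lower by limma, where 11.3% and 18.7% were, and 4 had an unadjusted p under 0.05. The median member change was -0.20 against -0.05 over all probe sets. Without the shEGR2_38.9 array that stood apart 5 were called again. The mean changes were then -1.39 for Il33 (adjusted p = 3.6e-07), -0.70 for Il18 (adjusted p = 0.00068), -0.49 for Il1a (adjusted p = 0.00113), 0.28 at 1425663_PM_at (adjusted p = 0.00937) and 0.26 at 1423017_PM_a_at (adjusted p = 0.00245).

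In the scan batch that a hairpin shares with PLKO, the control-diet Il33 difference was -1.05 for shEGR2_40.9 and -1.87 for shEGR2_38.9. The Il18 difference there was -1.32 and -0.31, and the Il1a difference -0.27 and -0.47, so all 6 had the direction of the means.

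On the PA-rich diet Il33 had 7.40, 7.41 and 7.29 with shEGR2_40.9 and 8.14, 7.82 and 8.11 with shEGR2_38.9, against 7.31, 7.78 and 7.88 with PLKO. The EGR2 groups lay on either side of PLKO and both overlapped it, and their mean differed by 0.04 (95% confidence interval -0.24 to 0.32). Il18 differed by -0.22 and Il24 by 0.01. Limma called 0 of 8 member probe sets, where 1.13% of all probe sets were called. At an unadjusted p under 0.05 there was 1, Il1a at -0.29 (adjusted p = 0.177), which passed with only the compared arrays fitted (adjusted p = 0.0206). For shEGR2_40.9 alone Il1a was called, with 7.80, 7.73 and 7.73 against 8.23, 8.26 and 8.35 with PLKO, no overlap and a change of -0.53 (adjusted p = 0.00695), the 1 member called of the 8, where 4.16% of all probe sets were called, 2.51% higher and 1.65% lower. For shEGR2_38.9 alone 0 of 8 were called by limma, where 0.528% of all were (0.417% higher), and 1 had an unadjusted p under 0.05.

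Silencing GAL was set against PLKO in the same way. Il24 and all 3 Il1rn probe sets were higher with shGAL on both diets, Il24 by 3.35-fold on the PA-rich diet and 3.48-fold on the control diet. Il33, Il18 and Il1a were higher with shGAL on the PA-rich diet, 3.93-fold, 1.99-fold and 1.52-fold, and were not called on the control diet. Il1b was not called on either diet.

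Il24 had 9.77, 10.04 and 9.76 with shGAL on the PA-rich diet, against 7.92, 8.12 and 8.31 with PLKO. Control-diet Il24 was at 9.74, 9.66 and 9.37 with shGAL, against 7.98, 7.58 and 7.81 with PLKO. All 6 shGAL arrays lay more than 1 log2 unit above every PLKO array, and the changes were 1.74 ± 0.216 on the PA-rich diet (adjusted p = 6.97e-06) and 1.80 ± 0.216 on the control diet (adjusted p = 5.65e-06). In the scan batch shared with PLKO the Il24 difference was 1.45 on the PA-rich diet and 1.57 on the control diet. Il1rn at 1423017_PM_a_at had 11.51, 11.55 and 11.42 with shGAL on the PA-rich diet, against 10.73, 10.62 and 10.68 with PLKO. Its control-diet levels were 11.36, 11.35 and 11.23 with shGAL, against 10.33, 10.26 and 10.07 with PLKO. No shGAL array overlapped PLKO, and the changes were 0.82 ± 0.0782 on the PA-rich diet (adjusted p = 2.07e-07) and 1.09 ± 0.0782 on the control diet (adjusted p = 4.92e-09). The other Il1rn probe sets gave 0.63 and 0.82 on the PA-rich diet and 0.98 and 0.88 on the control diet. The Il24 and Il1rn calls held on both diets in every alternative that covered them.

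On the PA-rich diet Il33 had 9.35, 9.66 and 9.88 with shGAL, against 7.31, 7.78 and 7.88 with PLKO, with no overlap and a change of 1.97 ± 0.156 (adjusted p = 1.45e-08). Il18 had 7.70, 8.06 and 7.97 with shGAL, against 6.97, 7.01 and 6.78 with PLKO, again with no overlap, a change of 0.99 ± 0.151 (adjusted p = 8.9e-05). Il1a had 8.88, 8.99 and 8.79 with shGAL, against 8.23, 8.26 and 8.35 with PLKO, no overlap and a change of 0.60 ± 0.112 (adjusted p = 0.000784). In the shared scan batch these differences were 2.00, 1.20 and 0.44. Member probe sets called higher numbered 7 of 8 on this diet, of 5 genes, where 8.11% of all probe sets were. The median member change, with Il1rn counted 3 times, was 0.82 against -0.02 over all.

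On the control diet the shGAL changes were 0.25 for Il33 (adjusted p = 0.304), 0.33 for Il18 (adjusted p = 0.143) and 0.22 for Il1a (adjusted p = 0.181). Il18 passed without PLKO control-diet array 1 (0.57, adjusted p = 0.0046) and Il1a without PLKO control-diet array 3 (0.37, adjusted p = 0.0303). Member probe sets called higher numbered 4 of 8, where 7.42% of all probe sets were, and 0 lower, where 10.1% were. The 4 were of 2 genes, Il24 and Il1rn with its 3 probe sets. The median member change, which counts Il1rn 3 times, was 0.60 against -0.01 over all. The Il1b differences were -0.08 on the PA-rich diet (adjusted p = 0.754) and -0.12 on the control diet.

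**Figure D3:**
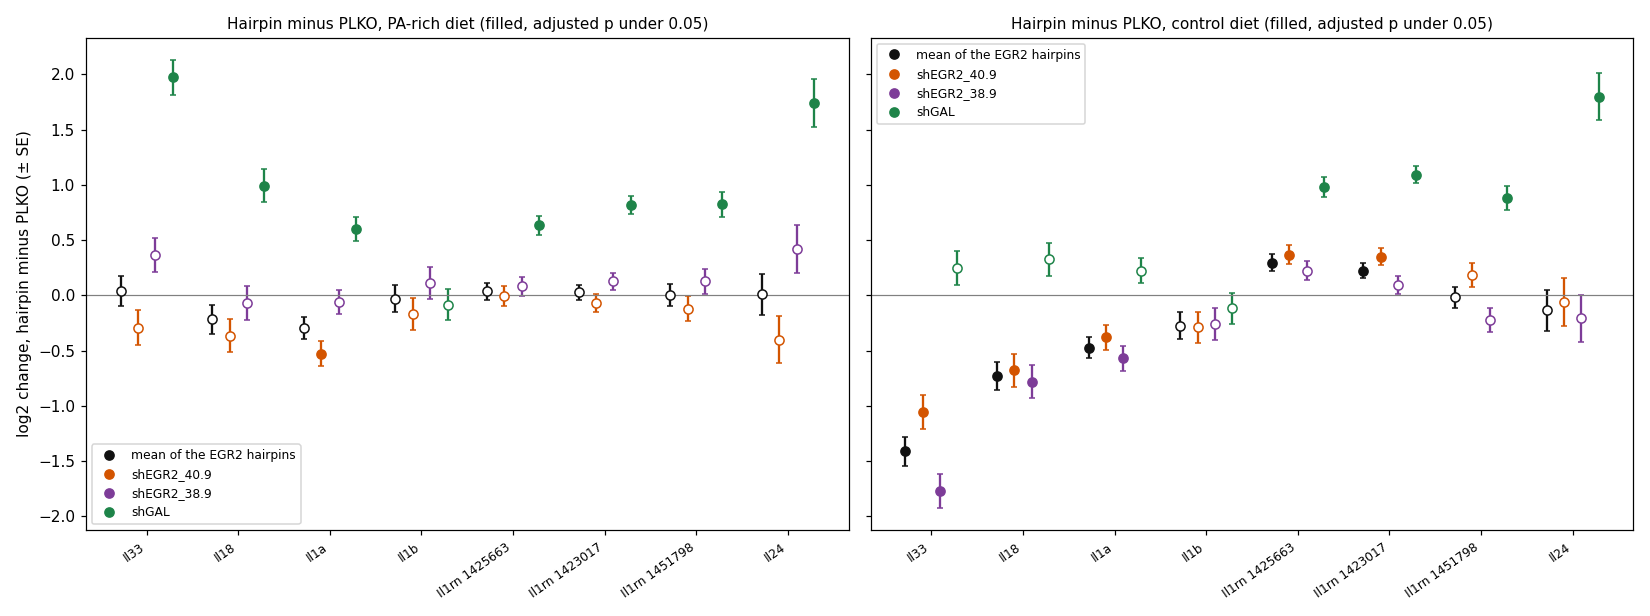
Log2 difference from PLKO (vertical axis) for each member probe set (horizontal axis) and hairpin (colour) on each diet (panels); bars are standard errors of the limma fit and filled points passed at an adjusted p under 0.05. On the control diet Il33 lies at -1.06 and -1.77 with the EGR2 hairpins, and Il24 with shGAL lies at 1.74 on the PA-rich diet and 1.80 on the control diet.

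Seen across all 8 groups, Il33 spanned 3.31 log2 units between its group means, Il24 2.28, Il18 1.96, Il1a 1.13 and Il1b 0.41. Il33 was highest with shGAL on the PA-rich diet at 9.63 ± 0.263 (SD, n = 3) and lowest with shEGR2_38.9 on the control diet at 6.32 ± 0.0865. Between these it ran, downwards, through shGAL on the control diet (8.34), PLKO on the control diet (8.09), shEGR2_38.9 on the PA-rich diet (8.02), PLKO on the PA-rich diet (7.66), shEGR2_40.9 on the PA-rich diet (7.36) and shEGR2_40.9 on the control diet (7.03). Neighbours from the second to the sixth place overlapped in their array ranges, and the others did not. Il18 kept the same group at the top (7.91), and its lowest places, shEGR2_40.9 (6.05) and shEGR2_38.9 (5.95) on the control diet, overlapped. Il24 was at 9.86 with shGAL on the PA-rich diet and 9.59 with shGAL on the control diet, then 8.53 with shEGR2_38.9 on the PA-rich diet, none of which overlapped its neighbour. The 5 lower Il24 groups, from 8.11 with PLKO on the PA-rich diet to 7.58 with shEGR2_38.9 on the control diet, each overlapped the next. For Il1a and Il1b every group overlapped its neighbours in the order.

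Over the 8 group means Il33 and Il18 correlated at r = 0.967 (0.909 over the 24 arrays). The 3 Il1rn probe sets correlated with each other at 0.943 to 0.986 over group means, and Il24 with them at 0.931 to 0.969. Il1b correlated with the other members at 0.02 to 0.55. These values are descriptions. The points share arrays, normalization and the same 8 groups.

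Outside the members, the gene closest to Il33 over the 8 group means was Slc6a14, an amino acid transporter gene (r = 0.991, and 0.917 over 24 arrays), followed by Zdhhc21, a palmitoyltransferase gene (0.979), and Cyrib (0.975). Il18 was closest to Psors1c2 (0.981), a gene of the cornified epidermis, and then to Il33. Il1a was closest to Rhbdl3 (0.968). Il24 was closest to Prdm1, which encodes the transcriptional repressor Blimp-1 (0.986), Bco2 (0.983) and Plet1 (0.981). Il1rn at 1423017_PM_a_at was closest to Gprc5a (0.990), then Il24 (0.957) and Sox9 (0.957). These genes were ranked among 601 whose group means spanned at least 1 log2 unit.

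The genes around the members in their pathways were described from lists, 1 probe set for each gene. Among other interleukin-1 family ligands, 2 of the 4 measured were above the dim level. Il36g, the epithelial cytokine IL-36γ, was higher on the PA-rich diet with shEGR2_38.9, at 10.71 against 9.61 on the control diet, a change of 1.10 (adjusted p = 8.07e-08). It was also higher with shGAL, by 0.58 on the PA-rich diet (adjusted p = 0.000603) and 0.87 on the control diet (adjusted p = 6.46e-06). The EGR2 hairpins had less of it than PLKO on the control diet (log2 change -0.39, adjusted p = 0.00335), by -0.65 for shEGR2_38.9 alone (adjusted p = 6.36e-05) and -0.12 for shEGR2_40.9 alone, which did not pass (adjusted p = 0.514). The calls for the diet, for shGAL and for the mean of both EGR2 hairpins held in all 30 alternatives.

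Of the receptors for IL-1 and IL-18, their decoys and adaptors, 17 of 19 listed genes were tested. On the PA-rich diet 5 were higher and 2 lower with shEGR2_38.9, 1 higher and 2 lower with shEGR2_40.9, 1 higher with shGAL and 1 lower with PLKO. Of all genes tested 13.6% were higher and 8.26% lower with shEGR2_38.9, 3.56% and 5.11% with shEGR2_40.9, 1.35% higher with shGAL and 0.794% lower with PLKO. The calls that held in all 30 alternatives were 2 of these with shEGR2_38.9 and 1 with PLKO. Il1r2, which encodes the decoy receptor that binds IL-1 without signalling, was among both: it was at 9.29 on the PA-rich diet against 8.42 on the control diet with shEGR2_38.9 (change 0.87, adjusted p = 3.8e-05), and at 8.73 against 9.50 with PLKO (change -0.77, adjusted p = 0.00385). Its diet effect differed between the EGR2 hairpins and PLKO by 1.18 (adjusted p = 5.7e-05). For the mean of both EGR2 hairpins Il1r2 was lower on the control diet, at 8.54 against 9.50 with PLKO (change -0.96, adjusted p = 1.52e-06). On this list 2 were called lower and 1 higher there, where 14.2% and 10.7% of all genes were. Il1rl2, the IL-36 receptor gene, was the other one lower (-0.55, adjusted p = 0.00267). With shGAL 3 of the list were higher on the PA-rich diet, where 7.6% of all genes were, and 2 on the control diet, where 7.08% were. They included Il1r2 (0.70, adjusted p = 0.000848) and Tollip, an adaptor that dampens receptor signalling (0.43, adjusted p = 0.000321), both on the PA-rich diet.

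Of the inflammasome and processing genes 5 of 13 listed were tested. Casp1, the protease that matures IL-1β and IL-18, was higher on the PA-rich diet with shEGR2_38.9, at 9.42 against 8.60 on the control diet (change 0.83, adjusted p = 6.1e-05). It was the 1 gene of the list lower with both EGR2 hairpins on the control diet, at 8.82 against 9.55 with PLKO (change -0.73, adjusted p = 4.84e-05), -0.50 for shEGR2_40.9 (adjusted p = 0.0124) and -0.95 for shEGR2_38.9 (adjusted p = 7.62e-06). In the same comparison 2 were higher, Casp8 (0.49, adjusted p = 0.00107) and Casp4 (0.24, adjusted p = 0.00975), which encode other caspases of cell death and inflammation, and Casp4 did not hold in all alternatives. Of all genes 10.7% were higher and 14.2% lower there. With shEGR2_38.9 the diet also went with lower Casp8 and Casp4, neither of which held in all alternatives, so 1 was higher and 2 lower where 13.6% and 8.26% of all genes were. With shEGR2_40.9 1 was higher, where 3.56% of all genes were, and with shGAL and PLKO the diet called 0 by limma.

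Of the IL-20 subfamily list 8 of 11 genes were tested. The diet called 1, Il20ra, a chain of the receptors for IL-20 and IL-24, higher with shEGR2_40.9 (0.36, adjusted p = 0.0011), and 0 with the other hairpins by limma. Of all genes 3.56% were higher with shEGR2_40.9. For the mean of both EGR2 hairpins against PLKO on the control diet 0 were higher and 2 lower, where 14.2% of all genes were lower. These were Il20, the cytokine gene that names the subfamily (-0.88, adjusted p = 0.00492), and Il20ra (-0.19, adjusted p = 0.0234), and neither held in all alternatives. For shEGR2_38.9 alone Il20ra was not called (-0.14, adjusted p = 0.113). With shGAL on the PA-rich diet 1 was higher and 1 lower, where 7.6% and 4.73% of all genes were. Il20 was the higher one (0.87, adjusted p = 0.0239), a call lost in 5 alternatives. Socs3, a feedback inhibitor induced by STAT3, was the lower one (-0.95, adjusted p = 0.000481), while Il24 was higher in the same arrays.

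Of the NF-kB and IL-1 response genes 19 of 24 were tested. The PA-rich diet went with 9 higher and 2 lower in shEGR2_38.9 (4 and 1 of them in all alternatives), where 13.6% and 8.26% of all genes were, and the list's median change was 0.21 against 0.07 over all genes. They included the chemokine gene Ccl20, at 8.77 on the PA-rich diet against 8.01 on the control diet (change 0.76, adjusted p = 2.66e-07), and the acute phase gene Saa3, which fell (-2.44, adjusted p = 0.00384). With shEGR2_40.9 4 were lower and 0 higher, and none of the 4 held in all alternatives. Of all genes 5.11% were lower with shEGR2_40.9 and 0.794% with PLKO. With PLKO 1 was lower, Lcn2, which encodes lipocalin 2 (-1.25, adjusted p = 0.000368), and with shGAL 0 were called by limma. Against PLKO on the control diet, 6 of the list were lower and 1 higher with the EGR2 hairpins, where 14.2% and 10.7% of all genes were. Of these 3 of the lower ones held in all alternatives and the higher one did not. They were led by Ccl20 at 8.22 against 9.33 with PLKO (change -1.11, adjusted p = 2.94e-10). With shGAL against PLKO 2 of the list were higher and 1 lower for PA-fed mice, where 7.6% and 4.73% of all genes were. On the control diet 1 was higher and 2 lower, where 7.08% and 9.73% of all genes were. Ccl20 was lower with shGAL, by a log2 change of -0.39 on the PA-rich diet (adjusted p = 0.00184) and -0.89 on the control diet (adjusted p = 1.42e-07), where Il24 and Il1rn were higher.

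Of the other alarmins and type 2 cytokines 6 of 14 were tested. By diet 1 was called lower with shEGR2_40.9, 1 higher with shGAL and 0 with the other hairpins by limma. Of all genes 5.11% were lower with shEGR2_40.9 and 1.35% higher with shGAL. With shGAL against PLKO 2 were higher and 1 lower on each diet. Of all genes 7.6% were higher and 4.73% lower there on the PA-rich diet, and 7.08% and 9.73% on the control diet. Tslp, an epithelial alarmin, was higher with shGAL on the PA-rich diet, at 11.01 against 9.71 with PLKO (change 1.30, adjusted p = 4.01e-07), and lower on the PA-rich diet with shEGR2_40.9 (-0.59, adjusted p = 0.00479). Its shGAL change on the control diet was 0.39 (adjusted p = 0.0424) and its diet change with shGAL 0.56 (adjusted p = 0.0243), and these did not hold in all alternatives. S100a9, a calprotectin subunit gene, was higher with shGAL by 1.30 on the PA-rich diet (adjusted p = 5.4e-06) and by 0.78 on the control diet (adjusted p = 0.00138). Hmgb1, the gene of a nuclear alarmin, was lower with shGAL by a log2 change of -0.26 on the PA-rich diet (adjusted p = 0.0345, not in all alternatives) and -0.39 on the control diet (adjusted p = 0.00197).

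**Figure D4:**
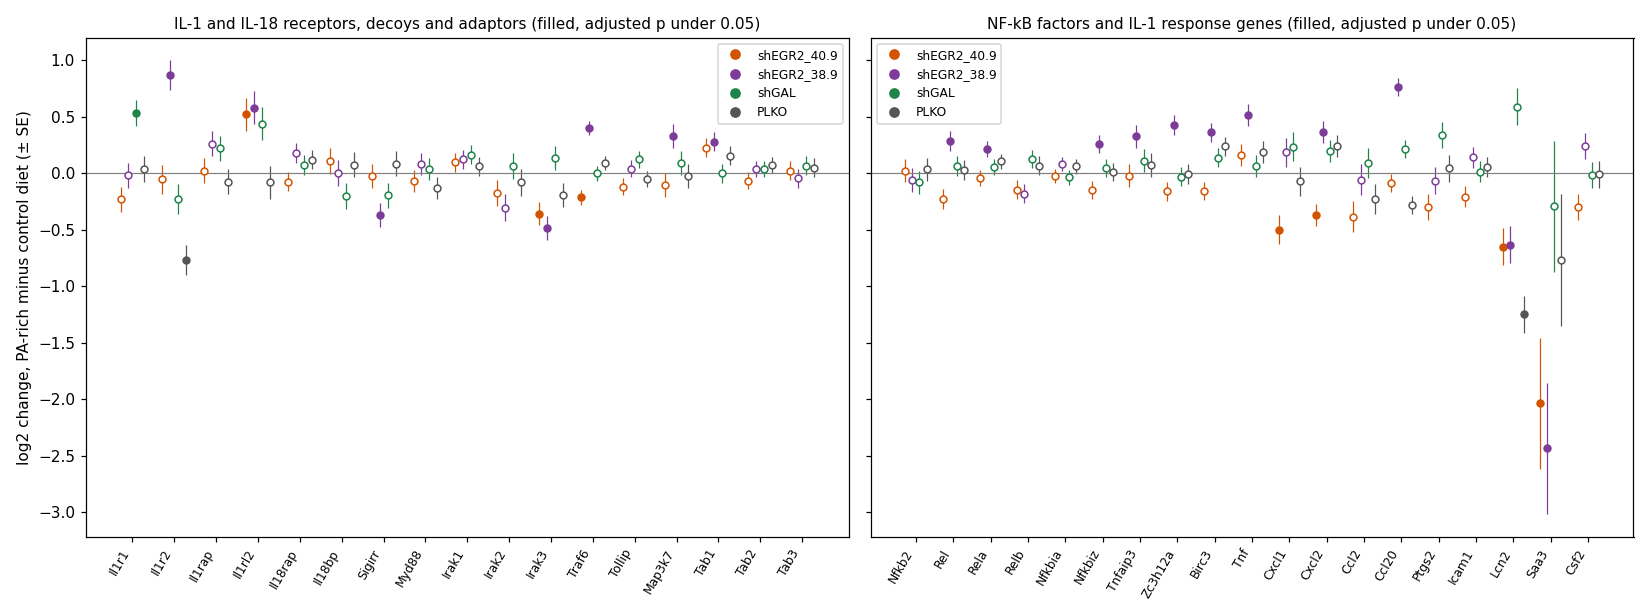
Log2 change on the PA-rich diet relative to the control diet (vertical axis) for the receptor, decoy and adaptor genes (left) and the NF-kB and IL-1 response genes (right) above the dim level, by hairpin (colour); bars are standard errors of the limma fit and filled points passed at an adjusted p under 0.05. Il1r2 and Ccl20 lie above 0 with shEGR2_38.9, at 0.87 and 0.76, while Il1r2 lies at -0.77 and Lcn2 at -1.25 with PLKO.

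Markers of other cell types moved with some of these groups. The mean level of the 11 keratinocyte markers was 10.57 to 10.85 on the 3 arrays of shEGR2_38.9 on the control diet, the group where Il33 was lowest, and 11.16 to 11.42 on the other 21. On the PA-rich diet 5 of the 11 were higher with shEGR2_38.9, where 13.6% of all genes were, and 3 of these held in all alternatives. The 5 included Krt6b (1.37, adjusted p = 1.07e-06) and Krt4 (1.10, adjusted p = 0.000284), and 0 were higher with shEGR2_40.9, shGAL or PLKO by limma. With each of those 3 hairpins 1 was lower: Sprr1a with shEGR2_40.9 (-0.74, adjusted p = 0.000235) and, not in all alternatives, Sprr1a with PLKO (-0.58, adjusted p = 0.0159) and Trp63 with shGAL (-0.32, adjusted p = 0.0324). Of all genes 5.11%, 0.625% and 0.794% were lower by diet with shEGR2_40.9, shGAL and PLKO. For the mean of both EGR2 hairpins against PLKO on the control diet 4 of the list were lower, 1 of them in all alternatives, and 0 higher. Of all genes 14.2% were lower there. The list mean was 11.40 with shEGR2_40.9, 10.75 with shEGR2_38.9 and 11.32 with PLKO on that diet. With shGAL against PLKO, where Il24 and Il1rn were higher, the list had 1 gene higher and 1 lower on the PA-rich diet. On the control diet limma called 0. Of all genes 7.6% were higher and 4.73% lower with shGAL on the PA-rich diet. The part of the keratinocyte markers in the member results was not tested.

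The mean level of the 9 endothelial markers was 9.44 to 9.74 with shEGR2_40.9 and 9.58 to 10.06 with shEGR2_38.9 on the control diet, against 7.76 to 8.51 on the other 18 arrays. All 9 were higher with the EGR2 hairpins than with PLKO on the control diet, where Il33, Il18 and Il1a were lower. With each EGR2 hairpin 8 of the 9 were lower on the PA-rich diet than on the control diet. Of all genes 5.11% were lower by diet with shEGR2_40.9 and 8.26% with shEGR2_38.9. Against PLKO on the control diet 10.7% were higher with the EGR2 hairpins. With shGAL none of the 9 was called against PLKO by limma on either diet, nor by diet. The mean level of the 5 macrophage markers above the dim level followed. On the control diet it was 7.55 to 7.69 with shEGR2_40.9 and 7.80 to 7.89 with shEGR2_38.9, against 7.01 to 7.27 elsewhere. Adgre1, C1qa and Aif1 were below the dim level. For the mean of both EGR2 hairpins against PLKO on the control diet 3 of the 5 were higher, where 10.7% of all genes were. These were Mrc1 (1.87), Cd68 (0.55) and Cd14 (0.53). Limma did not call Csf1r (-0.11, adjusted p = 0.25) or Fcgr1 (-0.14, adjusted p = 0.316) there. The part of these lists in the member results was not tested. The 2 measured neutrophil markers above the dim level were at 7.38 to 7.53 with shGAL on the PA-rich diet and 7.10 to 7.51 on the control diet, against 6.55 to 6.96 elsewhere, as means of S100a9 and Mpo. S100a9 was higher with shGAL as given above, and Mpo was not called (-0.04 on the PA-rich diet, adjusted p = 0.878, and 0.15 on the control diet, adjusted p = 0.428). Csf3r, Cxcr2, Elane and S100a8 were below the dim level. So were 6 of the 8 markers of mast cells, which respond to IL-33, among them Kit and Cpa3. Hdc, the histamine-forming enzyme gene and 1 of the 2 above it, was higher than in PLKO with shGAL on the PA-rich diet (0.48, adjusted p = 0.00373) and with the EGR2 hairpins on the PA-rich diet (0.53, adjusted p = 0.00455, lost without PLKO PA-rich array 3) and on the control diet (0.60, adjusted p = 4.11e-05). By diet Hdc was lower with shEGR2_40.9 (-0.69, adjusted p = 0.000137). Limma did not call Cma1, the other mast cell marker above the dim level, in any of these comparisons. Its changes were -0.05, -0.02, -0.03 and 0.09 in the same order (adjusted p = 0.591 to 0.962).

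Of the 7 fibroblast markers 3 were above the dim level (Col1a1, Dcn and Thy1), and Col1a2, Pdgfra, Lum and Dpt were below it. Their mean level was 10.35 to 10.87 with shEGR2_40.9 and 9.91 to 11.01 with shEGR2_38.9 on the control diet, against 9.30 to 10.60 on the other 18 arrays, so the ranges overlapped. Thy1 was higher with the EGR2 hairpins than with PLKO on the control diet (0.92, adjusted p = 3.63e-09) and lower on the PA-rich diet with shEGR2_38.9 (-0.91, adjusted p = 2.22e-08) and shEGR2_40.9 (-0.50, adjusted p = 0.000139). On the control diet Col1a1 was higher too (1.81, adjusted p = 0.0306), while Dcn was lower (-0.37, adjusted p = 0.00776). By diet Dcn was higher with shEGR2_38.9 (0.44, adjusted p = 0.0064) and lower with shEGR2_40.9 (-0.43, adjusted p = 0.0162). The mean of the 4 glial markers above the dim level was 8.42 to 8.78 over all arrays. By diet 1 of the 4 was higher with shEGR2_38.9, Erbb3 (0.38, adjusted p = 0.00025), and 1 with shEGR2_40.9, Ngfr (0.43, adjusted p = 0.0106, not in all alternatives). Of all genes 13.6% were higher by diet with shEGR2_38.9 and 3.56% with shEGR2_40.9. Against PLKO 1 was lower for the mean of the EGR2 hairpins on the control diet, where 14.2% of all genes were. With shGAL 1 was higher on the control diet (7.08% of all genes), and 1 higher and 1 lower on the PA-rich diet (7.6% and 4.73%). None of these calls against PLKO held in all alternatives. Of the 3 neuronal markers above the dim level, Tubb3 was lower by diet with PLKO (-0.75, adjusted p = 0.000711), where 0.794% of all genes were. Against PLKO Tubb3 was lower for the mean of the EGR2 hairpins on the control diet (-0.31, adjusted p = 0.0149). For that mean it was higher on the PA-rich diet (0.46, adjusted p = 0.00946), where 0.777% of all genes were. Neither of these EGR2 calls held in all alternatives. With shGAL Tubb3 was higher than with PLKO on the PA-rich diet (0.43, adjusted p = 0.00658). Its diet effect differed between the EGR2 hairpins and PLKO by 0.77 (adjusted p = 0.000349), where 4.99% of all genes were called higher. Rbfox3 and Prph were not called in these comparisons. The part of the neutrophil, mast cell, fibroblast, glial and neuronal markers in the member results was not tested.

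**Figure D5:**
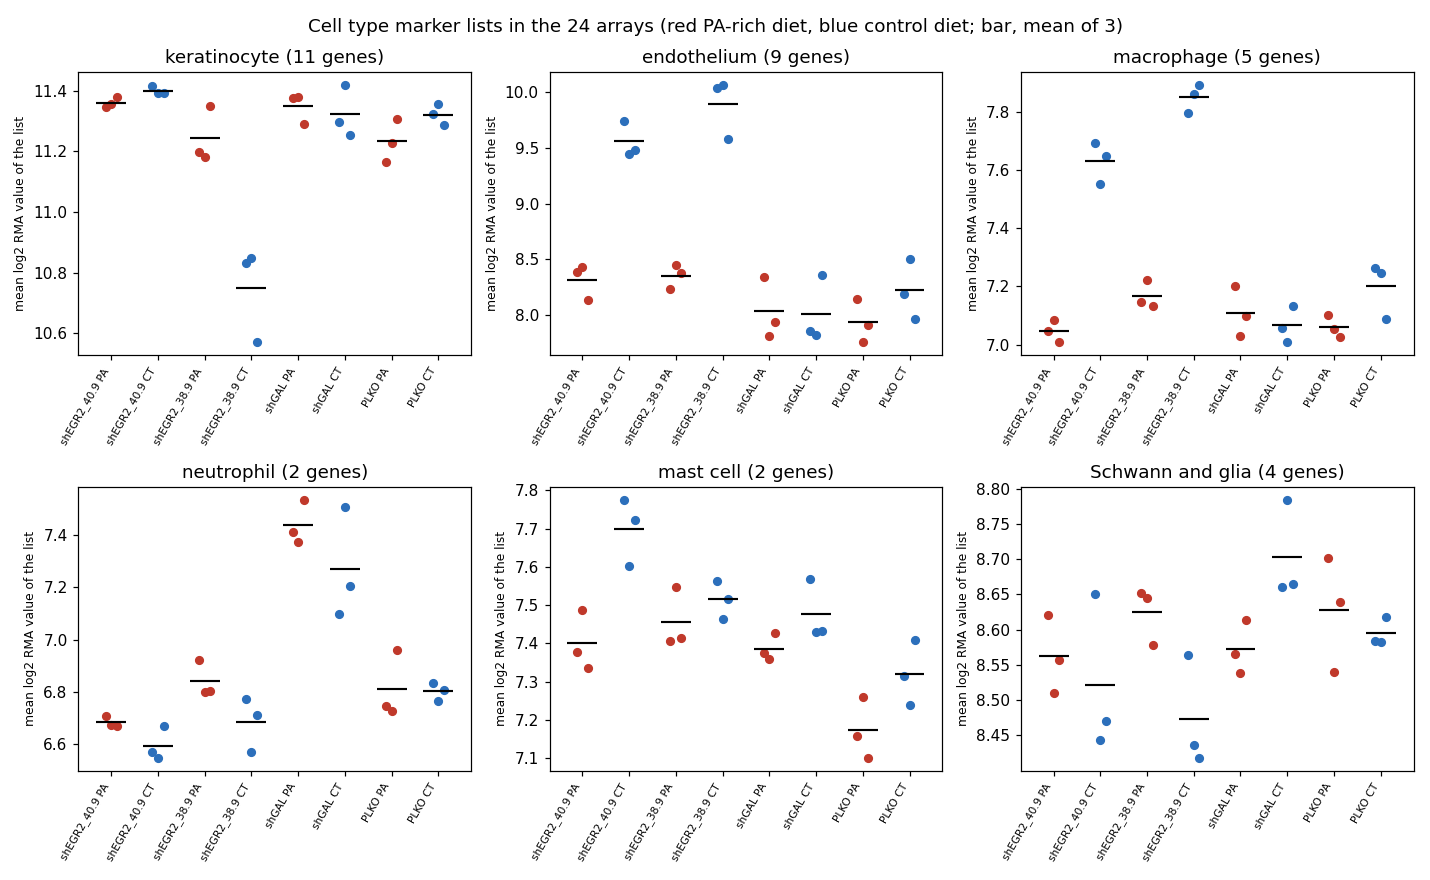
Mean log2 RMA level of 6 cell type marker lists (vertical axes) on every array by hairpin and diet (horizontal axis, the PA-rich diet in red left of the control diet in blue); points are arrays and bars means of 3. Endothelial and macrophage markers are highest with both EGR2 hairpins on the control diet, and keratinocyte markers are lowest with shEGR2_38.9 on the control diet.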

How the data were processed

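Probe-set values were the log2 intensities deposited by the authors, made with RMA and the affy package (per the submitters' notes on processing), with versions not given in the sources used here. Gene names came from the platform annotation (28898 probe sets with 1 symbol, 551 with several, 15692 with none), updated through RefSeq. Probe sets whose mean over all arrays was below the 40th percentile of the table (6.27) were left out, and 18937 were tested. One limma 3.58.1 model (R 4.3.3) of 8 group means over 24 arrays gave 11 comparisons and 6 for single EGR2 hairpins. Tests were two-sided, with 16 residual degrees of freedom. P-values were adjusted by Benjamini-Hochberg over all probe sets within a comparison, with a threshold of 0.05.

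No 2 arrays were identical. Within a hairpin the arrays of both diets with the same replicate number shared a scan batch, so the number pairs the diets there. The residual correlation of same-numbered arrays was -4.49e-05 to 0.257, above 0.1 in 6 of 12 pairs. Values with scan batch as a block are printed where they changed a call. On simulated data of the diet comparison with PLKO, over 18937 probe sets, the model called 78 of 100 probe sets changed by 0.5 and 96 of 100 changed by 1. It called 184 in all, 10 of them unchanged, and the simulated arrays had no scan batches. The number of arrays limits the precision. Members and lists were chosen with earlier results of these data known. Named genes were the members and at most the 3 genes with the largest called change on each list. Array annotation for Il1rl1 and a promoter for Il24 were not used here.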

Additional observations from a re-analysis of the deposited data

Results flagged for a closer look

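The diet effect differed between hairpins, by a test of the difference itself, in 10 results. Relative to the diet effect with PLKO, that on Il33 was larger by 1.45 with the EGR2 hairpins together, by 2.13 with shEGR2_38.9 alone and by 1.73 with shGAL. Il18 and Il1a differed by 0.71 and 0.51 with shEGR2_38.9 alone, and Il1rn at 1423017_PM_a_at by -0.42 with shEGR2_40.9 alone. Between the EGR2 hairpins the effect was larger with shEGR2_38.9 for Il33 by 1.37, for Il1a by 0.66 and for Il1rn by 0.45 at 1423017_PM_a_at and 0.65 at 1451798_PM_at. Of these 10 results only those of Il33 held in all alternatives. The groups of 3 arrays are too small for an outlier test.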

How the results depend on the processing

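Every result was recomputed under 6 other settings and without each of the 24 arrays. Of 782 values under the other settings, 749 kept their direction and side of the threshold, 15 lost their call, 8 gained one and 10 uncalled values changed sign. Of 3264 values without an array, 3142 kept both, 39 lost their call, 32 gained one and 51 uncalled values changed sign. No called value turned its direction. With 1 probe set for each gene, 1 of 6 was called for diet with PLKO, 2 for shGAL against PLKO on the control diet, and 2 for the diet effect between the EGR2 hairpins, since Il1rn then counts once. With only the compared arrays fitted, 0 were called for diet with PLKO, 2 for diet with shEGR2_40.9, and for the EGR2 hairpins against PLKO 1 on the PA-rich and 3 on the control diet, with fewer arrays to estimate the spread. With no filter 0 were called for diet with shEGR2_40.9. Without 1 array the calls were 1 to 2 for diet with PLKO, 0 to 1 with shEGR2_40.9, 5 to 8 with shEGR2_38.9 and 2 to 2 with shGAL. Against PLKO they were 0 to 0 on the PA-rich and 4 to 6 on the control diet for both EGR2 hairpins, and 7 to 7 and 4 to 5 for shGAL in the same order of diets. For differences in diet effect they were 1 to 2 for the EGR2 hairpins and 1 to 2 for shGAL against PLKO, and 3 to 5 between the EGR2 hairpins. With scan batch as a replicate block, Il1rn at 1423017_PM_a_at lost its control-diet call for the EGR2 hairpins (adjusted p = 0.0834), Il1a lost that for shEGR2_40.9 (0.0879), Il1rn at 1425663_PM_at gained a diet call with shEGR2_38.9 (0.0384), and no other member call changed. Control-diet levels of Il18 with either EGR2 hairpin lay below the dim level, which limits how far a decrease can show. Il33 with shEGR2_38.9 on the control diet lay near that level, at 6.24 to 6.41 with 1 of 3 arrays below it. The Il33 changes that use this group have the same limit.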
